A study of Caenorhabditis elegans with 39 samples.

Results

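*alg-3* (T22B3.2) and *alg-4* (ZK757.3) encode a closely related pair of *C. elegans* Argonautes, the proteins that hold small RNAs and use them to find target RNAs. Both were chosen by sequence name, and both have a row in each mRNA table, 2 of 22844 features. RefSeq (assembly WBcel235) places *alg-3* on chromosome IV and *alg-4* on chromosome III.

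In *C. elegans*, hermaphrodites first make a limited number of sperm and then switch to oocytes, and the sperm are kept in the spermatheca at the proximal end of the gonad. ALG-3 and ALG-4 act redundantly during spermatogenesis, where they bind 26G-RNAs made with the RNA-dependent RNA polymerase RRF-3 and the ERI proteins. The secondary 22G-RNAs made downstream are loaded onto other Argonautes, among them CSR-1 and the WAGO proteins, and animals lacking both sperm Argonautes make defective sperm at elevated temperature.

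The study asked how piRNAs and WAGO-class 22G-RNAs shape gene expression in the adult germline. RNA over 200 nt, depleted of ribosomal RNA, was sequenced from dissected gonads of gravid adults 68 to 70 h old grown at 20 °C. The genotypes were wild type (N2), *prg-1(n4357)*, which affects the Argonaute that binds piRNAs, and *mut-16(pk710)*, which affects the protein that organizes 22G-RNA amplification, each mutant being a single allele. Whole wild type gravid adults were sequenced alongside, with 3 biological replicates in each of the 4 groups (12 libraries). According to the methods, the gonads were cut so that the distal arm alone went into the libraries, leaving out the end where gametes mature.

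Values are normalized reads as deposited, in a table of 6 libraries (wild type gonads and whole animals) and a table of 9 (gonads of the 3 genotypes). The same wild type gonad libraries appear in both, scaled separately, so levels were compared only within a table. Library sums lay between 14202900 and 16823700 normalized reads. The scaling left most low values on steps of 1 read, worth between 0.858 and 1.161 normalized reads, and the 3.25 normalized reads of *alg-3* in wild type gonad replicate 3 come to about 3 reads. The 10 intestine markers were all lower in gonads than in whole animals, at 79.6 to 369 normalized reads in sum against 143448 to 154599. Of all features tested, 52.6% were lower. In the same comparison 7 of 8 distal germ cell markers were higher, where 26.1% of all features were. Oocyte markers were nevertheless abundant in every gonad library (99656 to 122743 in sum in the table of genotypes). Of 11 oocyte markers, 8 were higher and 2 lower in gonads than in whole animals, against the same 26.1% and 52.6% of all features. *prg-1* mRNA was lower in *prg-1* gonads, at 5414 ± 802 against 10550 ± 600 (SD, n = 3), and *mut-16* mRNA was lower in *mut-16* gonads, at 949.9 ± 25.7 against 2069 ± 17.9. A pair of libraries stood apart in sperm transcripts. The summed mRNA of the major sperm proteins, the structural proteins of nematode sperm, was 1323 normalized reads in wild type gonad replicate 2 against 292 and 230.0 in the other replicates, and 31922 in *prg-1* gonad replicate 3 against 6303 and 12419.

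Both sperm Argonaute mRNAs were detected in every library, lowest in wild type distal gonads and highest in *prg-1* gonads. Whole wild type animals had 78.9, 91.0 and 157 normalized reads of *alg-3*. Wild type gonads in the same table had 9.76, 62.5 and 3.22. The groups did not overlap, although gonad replicate 2 came close to the lowest whole animal and lay well above the other gonads.

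For *alg-4*, whole animals had 131, 146 and 255 normalized reads. The gonads had 10.7, 103 and 14.0. Again every gonad library was below every whole animal library, with replicate 2 the high one.

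*alg-3* was lower in gonads by a log2 change of -2.88 (SE 0.91, adjusted p = 0.0187), and *alg-4* by -2.70 (SE 0.79, adjusted p = 0.0140). These are limma fits on log2(value + 1) across all features that reached 10 normalized reads in at least 3 libraries, with Benjamini-Hochberg adjustment, and a call needed an adjusted p below 0.05 and a change of at least 1.3-fold. Because the genes are close paralogs, the counting may have split reads between them, so their sum was also tested, and it changed by -2.77 (adjusted p = 0.0138). Being lower in distal gonads was common: 52.6% of the 12761 features tested were called lower, 53.4% were lower without overlap, and the median log2 change of all features was -0.79. *alg-3* was below 10 normalized reads in gonad replicates 1 and 3. It was thus tested only because of the whole animal libraries, which favored a fall, whereas *alg-4* was above 10 in every gonad library. In whole animals and dissected tissue alike, fewer cells expressing a gene and less RNA per cell cannot be told apart. The call was lost when any whole animal library, or wild type gonad replicate 1 or 3, was left out (adjusted p = 0.0525 to 0.13, limma), and it remained without gonad replicate 2, where the change was -3.96 for *alg-3* and -3.69 for *alg-4*.

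**Figure D1:**
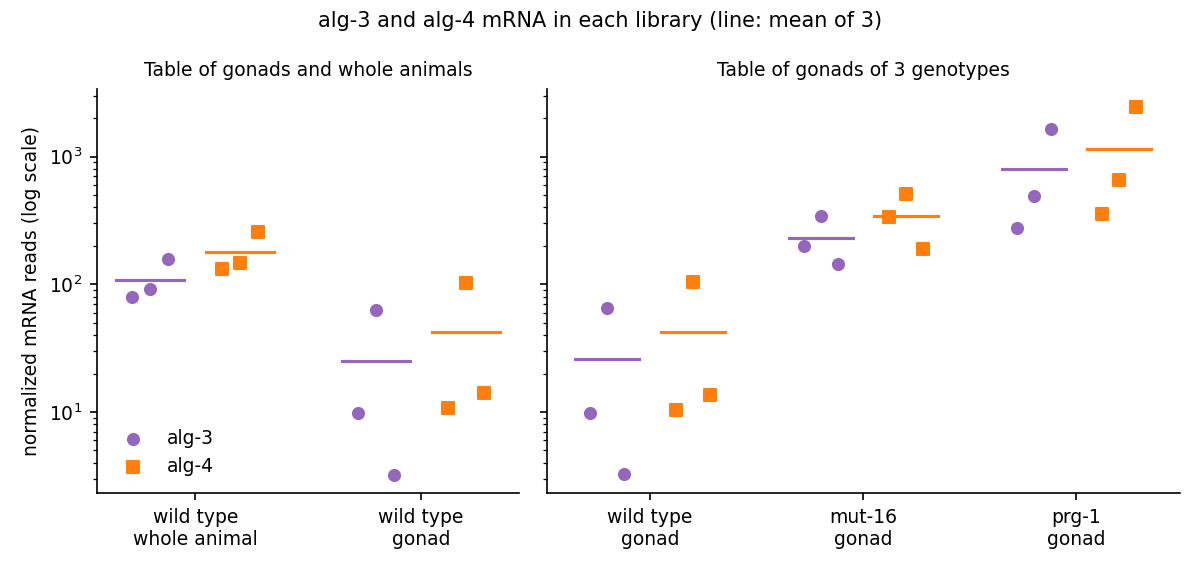
Normalized mRNA reads (log scale) of *alg-3* (circles) and *alg-4* (squares) in each library, by group, with the mean of 3 libraries as a line; the left panel is the table of gonads and whole animals and the right panel the table of 3 genotypes. Every mutant gonad library lies above every wild type gonad library, where replicate 2 (65.1 for *alg-3* in the right panel) is far above replicates 1 and 3.

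In the table of genotypes, wild type gonads had 9.74, 65.1 and 3.25 normalized reads of *alg-3*. *prg-1* gonads had 276, 491 and 1646. Every *prg-1* library exceeded every wild type library, and the 3 *prg-1* libraries themselves spread over a 5.97-fold range.

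Wild type gonads held 10.4, 104 and 13.6 normalized reads of *alg-4*. It was at 357, 650 and 2425 in *prg-1* gonads, so the lowest *prg-1* library was still above the highest wild type one. Replicate 3 was the highest *prg-1* library for both genes.

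The rise in *prg-1* gonads came to a log2 change of 5.39 for *alg-3* (SE 1.09, adjusted p = 0.00676, limma) and 4.998 for *alg-4* (SE 1.03, adjusted p = 0.00750, limma). The sum of both rose by 5.16 (95% interval 2.71 to 7.62), from a mean of 68.5 ± 86.7 to 1948 ± 1856 normalized reads (SD, n = 3). Of 9943 features tested, 20.7% were called higher and 29.3% were higher without overlap. Ordered by log2 change, *alg-3* stood at rank 65 and *alg-4* at rank 221 from the top. Both calls remained with each of the 9 libraries left out in turn, when the change lay between 4.51 and 6.49 for *alg-3* and between 4.22 and 6.005 for *alg-4*. *alg-3* reached 10 normalized reads in wild type replicate 2 alone, so it passed the low-value filter only through mutant libraries. For *alg-3* the filter therefore favored a rise in each mutant against wild type, whereas *alg-4* reached 10 in every wild type library.

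*mut-16* gonads had 200.3, 345 and 145 normalized reads of *alg-3*, all above the 3 wild type libraries. They had 335, 511 and 187 of *alg-4*, also above all 3 wild type libraries. The order of the *mut-16* replicates was the same for both genes.

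*alg-3* was higher in *mut-16* than in wild type gonads by 3.91 on the log2 scale (SE 1.09, adjusted p = 0.0347, limma) and *alg-4* by 3.62 (SE 1.03, adjusted p = 0.0372, limma). Their sum rose by 3.74 (95% interval 1.29 to 6.20), to 574.5 ± 264 normalized reads (SD, n = 3). In this comparison 15.5% of features were called higher and 28.4% were higher without overlap, and *alg-3* stood at rank 115 and *alg-4* at rank 214 from the top. The calls were close to the threshold: they were lost without *mut-16* replicate 1, 2 or 3, wild type replicate 1 or 3, or *prg-1* replicate 2 (adjusted p = 0.0529 to 0.115, limma), with the change between 3.02 and 4.19 for *alg-3* and between 3.03 and 4.002 for *alg-4* in those settings. They were also lost when only the libraries of wild type and *mut-16* were fitted (adjusted p = 0.0617 and 0.0577, limma). Both mutants were set against the same wild type libraries, so the comparisons are not independent.

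Set directly against each other, *prg-1* and *mut-16* gonads did not pass the test for either gene. *alg-3* was 1.49 higher in *prg-1* on the log2 scale (95% interval -1.08 to 4.05, adjusted p = 0.327, limma), and *alg-4* was 1.38 higher (95% interval -1.07 to 3.82, adjusted p = 0.340, limma). The *alg-3* and *alg-4* values of *prg-1* replicate 1 lay among those of *mut-16*, and *prg-1* replicates 2 and 3 lay above all of them. Among all features, 15.4% were called in either direction between these genotypes. Without *prg-1* replicate 3 the differences were 0.77 and 0.60. In order of level, wild type gonads were below both mutants without overlap, whereas *mut-16* and *prg-1* did not differ beyond their spread.

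**Figure D2:**
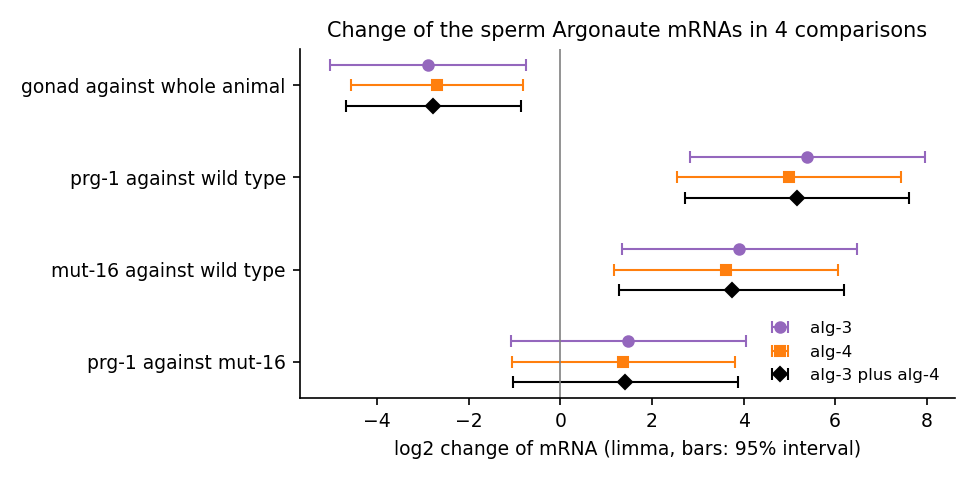
Log2 change of *alg-3*, *alg-4* and their sum in the 4 comparisons, from limma, with bars for the 95% interval. The intervals exclude 0 in the comparisons of gonads with whole animals and of each mutant with wild type, and include it between *prg-1* and *mut-16* (for the sum, -1.03 to 3.88).

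The balance between both genes was steady wherever they were well measured. *alg-3* made up 37.4% to 43.6% of the summed normalized reads in the 11 columns of the 2 tables where each gene had at least 50 normalized reads. Wild type gonad replicate 2 is among these columns in both tables. The sum itself spanned a 24.1-fold range over the 7 such columns of the table of genotypes. In the table of genotypes, the share was 37.4%, 40.3% and 43.6% in *mut-16* gonads. In *prg-1* gonads it was 43.6%, 43.0% and 40.4%. The wild type libraries with few reads deviated to both sides, at 48.5% in replicate 1 and 19.3% in replicate 3, while replicate 2 had 38.6%. Transcript lengths were not used here, so these shares are of reads and do not rank the genes by transcript number. The log2 ratio of *alg-4* to *alg-3* did not differ detectably in any of the 4 comparisons (exact two-sided permutation test over 3 against 3 libraries, p = 0.5 to 0.8, adjusted p = 0.8 for each, where 0.1 is the smallest p possible).

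Sperm transcripts moved with the Argonautes. The sum of *alg-3* and *alg-4* was 118, 107 and 98.7 normalized reads per 1000 reads of major sperm protein mRNA in whole animals. It was 68.9, 127 and 73.3 in wild type gonads of the table of genotypes. In the mutants it was 93.8, 95.5 and 91.2 in *mut-16* and 100.4, 91.9 and 128 in *prg-1*. This quotient therefore varied 1.85-fold over the 9 gonad libraries of the table of genotypes, in which the sum of the Argonautes varied 242-fold and the major sperm protein sum 139-fold. It did not differ detectably in any of the 4 comparisons (exact two-sided permutation test, 3 against 3 libraries, p = 0.3 to 0.9, adjusted p = 0.533 to 0.9). Set against the spermatogenesis list, whose sum includes the abundant *spe-44*, the quotient was not as even: it was 25.2, 166 and 20.8 per 1000 reads in wild type, 298, 347 and 193 in *mut-16* and 318, 380 and 534 in *prg-1* gonads. Both mutants were above all wild type libraries (p = 0.1 for each, the smallest possible in the exact two-sided permutation test, adjusted p = 0.133).

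**Figure D3:**
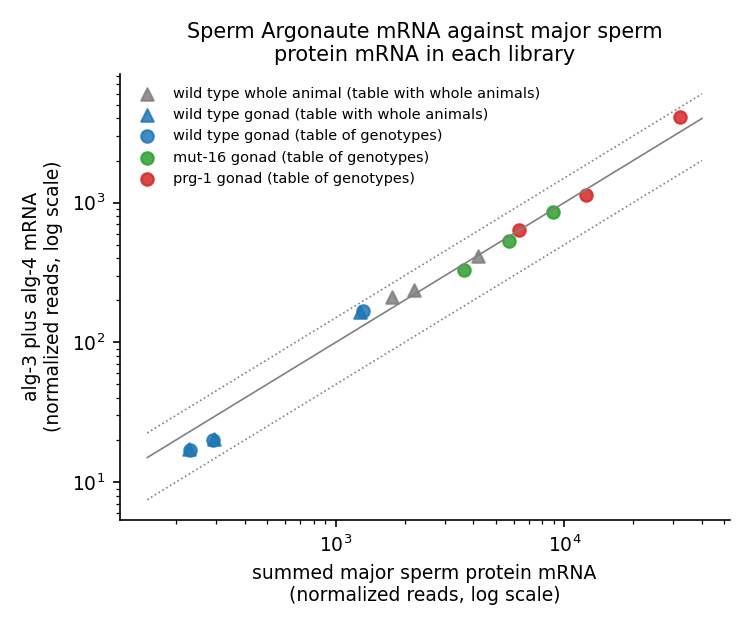
Summed *alg-3* and *alg-4* mRNA against summed major sperm protein mRNA in each library (normalized reads, both axes log scale), colored by group, with triangles for the table that holds whole animals and circles for the table of genotypes. The solid line marks 100 and the dotted lines 50 and 150 reads of the Argonautes per 1000 of major sperm protein, and the libraries lie between 68.9 and 130.0.

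All 28 of the major sperm protein genes tested were called higher in *prg-1* gonads, against 20.7% of all features. Their median log2 change was 4.88, against 0.01 over all features. A gene near 0 in wild type gonads passed the low-value filter only through mutant libraries, so for such genes the filter favored a rise. *msp-65* rose the most, from 5.05 ± 8.76 to 202 ± 154 normalized reads (log2 change 6.01, adjusted p = 0.0041, limma), followed by *msp-51* (5.68), *msp-142* (5.44) and *msp-38* (5.33). In *mut-16* gonads 25 of 28 were called higher (median 3.64), against 15.5% of all features. The largest changes there were in *msp-65* (4.58), *msp-50* (4.30), *msp-64* (4.26) and *msp-31* (4.21). Of 27 tested against whole animals, 25 (92.6%) were lower in gonads (median -2.49), where 52.6% of all features were, and *msp-65* (-4.06) was again the most changed, with *msp-10* (-3.13), *msp-38* (-3.10) and *msp-55* (-2.89) after it. These genes are near-identical copies of each other, so values of single members are uncertain. In gonads against whole animals, genes below 10 normalized reads in a gonad library passed the filter only with whole animal libraries, which favored a fall. The study itself described sperm genes in these samples, so this list is not independent evidence of the direction. In *mut-16* the count of 25 fell to 6 without *mut-16* replicate 2, to 14 without wild type replicate 1 and to 10 without wild type replicate 3.

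Other genes of spermatogenesis followed in *prg-1* gonads, where 18 of 20 tested were called higher, against 20.7% of all features. The median log2 change of the 20 was 4.14. Here too, genes near 0 in wild type gonads passed the low-value filter only through mutant libraries, so the filter favored a rise. *spe-11*, which encodes a sperm-supplied factor needed by the embryo, rose by 5.23 on the log2 scale (from 13.0 ± 12.7 to 513.5 ± 427 normalized reads, adjusted p = 0.00248, limma). *gsp-3*, which encodes a sperm-specific PP1 phosphatase, rose by 4.80, *spe-26* by 4.65 and *spe-12* by 4.39. In *mut-16* gonads 12 of 20 were called higher (median 2.33), against 15.5% of all features. The most changed were *spe-11* (3.75), *gsp-3* (3.42), *spe-26* (3.39) and *gsp-4* (3.24). The count of 12 fell to 4 and 1 without *mut-16* replicates 1 and 2. It fell to 3 and 2 without wild type replicates 1 and 3. Against whole animals, 7 of 11 (63.6%) were lower in wild type gonads, where 52.6% of all features were, with the largest changes in *spe-11* (-2.98), *spe-10* (-2.72), *spe-26* (-2.57) and *gsp-3* (-2.54). A gene below 10 normalized reads in any gonad library needed whole animal libraries to pass the filter, which favored a fall. The exceptions called higher in gonads were *spe-44* (0.85), which encodes a transcription factor of early spermatogenesis, and *spe-6* (0.40), a kinase gene; they were named for going against the others, after their values were seen. This count of 2 became 1 with library totals made equal, with the replicate block, and without wild type gonad replicate 1, 2 or 3 or whole animal replicate 1. *spe-44* mRNA lay at 525 to 540 normalized reads in the wild type libraries, 553 to 592 in *mut-16* and 577.5 to 699 in *prg-1*. Its change did not pass the fold threshold in either mutant.

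Of the genes that set germ cell sex, *fog-3*, a promoter of the sperm fate, was the one called higher in the mutants. With 1 of 14 called higher (7.14%), the list lay below the share of all features in *prg-1* (20.7%) and *mut-16* (15.5%). Wild type gonads had 15.6, 10.7 and 9.72 normalized reads of *fog-3*. The *mut-16* libraries had 50.4, 43.4 and 63.6, a log2 change of 2.05 (adjusted p = 0.000602, limma). The *prg-1* libraries had 70.8, 84.6 and 119, a log2 change of 2.83 (adjusted p = 4.65e-05, limma). The 3 genotypes did not overlap in *fog-3*, and wild type replicate 2, the high library for *alg-3* and *alg-4*, was not high for it. Of the other 13 genes, *fbf-1*, which encodes an RNA-binding repressor, was lower in *mut-16* (-0.53, adjusted p = 0.000895, limma), 12 had no call there, and 0 had a call in *prg-1* by limma (with *fog-3* counted, 3 of 14 were higher and 1 lower at an unadjusted p below 0.05). Without the fold threshold, 2 of 14 were higher and 5 lower in *mut-16* at an adjusted p below 0.05 (limma), with *fog-3* counted. In wild type gonads against whole animals 9 of 14 were higher and 1 lower, where 26.1% and 52.6% of all features were. The largest changes were in *gld-1* (1.17), *fbf-2* (1.00), *fbf-1* (0.96) and *tra-3* (-0.91), and *fog-3* had no call.

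**Figure D4:**
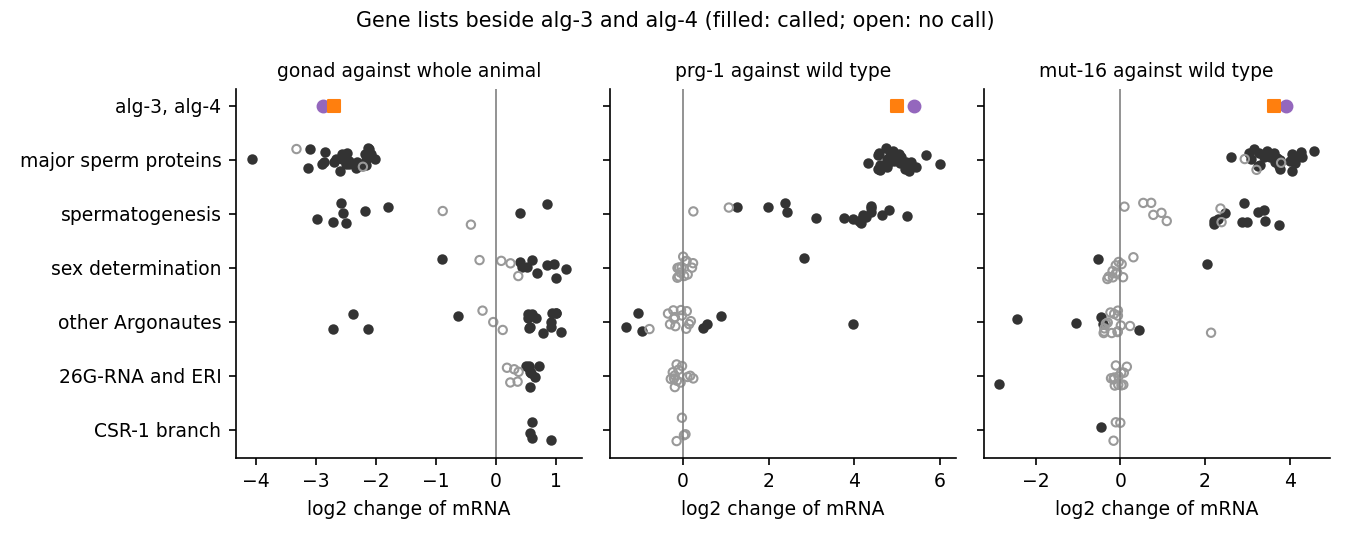
Log2 change of each tested gene in 6 gene lists (dots; filled where called, open where not) below *alg-3* (circle) and *alg-4* (square), in 3 comparisons; dots are spread vertically for visibility. The called major sperm protein and spermatogenesis genes lie on the side of *alg-3* and *alg-4*, except *spe-44* (0.85) and *spe-6* (0.40) in gonads against whole animals. The 26G-RNA and CSR-1 genes lie near 0 in the mutants except *eri-7* (-2.86) and *csr-1* (-0.46), both called lower in *mut-16*.

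In the comparisons where *alg-3* and *alg-4* were called, no gene of the 26G-RNA and ERI list was called in their direction. Of 13 tested, 0 were called in either direction in *prg-1* gonads by limma (without the fold threshold 1 was higher and 5 lower at an adjusted p below 0.05, and 2 were higher and 7 lower at an unadjusted p below 0.05), and the median log2 change was -0.14. In *mut-16* gonads 1 was called, *eri-7*, which fell from 1853 ± 86.7 to 254 ± 16.6 normalized reads (log2 change -2.86, adjusted p = 1.76e-08, limma). Without the fold threshold 4 were lower in *mut-16* at an adjusted p below 0.05 (limma). At an unadjusted p below 0.05, 1 was higher and 5 were lower there (limma). *eri-7* and *eri-6* together encode a single helicase through trans-splicing, and *eri-6* had no call in the mutants. Set directly against *mut-16*, *prg-1* gonads had more *eri-7* (log2 change 2.62, adjusted p = 3.88e-08, limma), a comparison in which *alg-3* and *alg-4* had no call. Against whole animals 8 of 13 were higher in gonads, where 26.1% of all features were, the direction opposite to *alg-3* and *alg-4*. These were *eri-6* (0.72), *gtsf-1* (0.65), *rrf-3* (0.58), the helicase gene *drh-3* (0.56), the double-stranded RNA-binding protein gene *rde-4* (0.56), *eri-3* (0.54), the embryonic 26G-RNA Argonaute gene *ergo-1* (0.54) and the exonuclease gene *eri-1* (0.49), and the count was 13 of 13 with TMM scaling.

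The CSR-1 branch genes were likewise more abundant in gonads. Of 5 genes named, 4 were matched, and all 4 were higher in wild type gonads than in whole animals (26.1% of all features were). They were *csr-1* (0.90), the RNA-dependent RNA polymerase gene *ego-1* (0.60), its partner *ekl-1* (0.59) and *drh-3*. In *prg-1* gonads 0 of 4 had a call by limma (1 was lower without the fold threshold, and 1 at an unadjusted p below 0.05). In *mut-16* gonads *csr-1* fell by 0.46 on the log2 scale, from 11017 ± 305 to 7986 ± 68.5 normalized reads (adjusted p = 4.77e-05, limma). Without the fold threshold 2 of 4 were lower in *mut-16* at an adjusted p below 0.05 (limma).

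Among the other Argonautes, *wago-10* showed the largest rise in *prg-1* gonads. Wild type gonads had 0.97, 8.03 and 1.08 normalized reads of it. The *prg-1* libraries had 14.7, 46.3 and 192, a log2 change of 3.97 (adjusted p = 0.0067, limma). The *mut-16* libraries had 10.3, 21.7 and 11.5, above all wild type libraries but with no call. Since *wago-10* was below 10 normalized reads in every wild type library, it passed the low-value filter through mutant libraries alone. As for *alg-3* and *alg-4*, wild type replicate 2 and *prg-1* replicate 3 were the high libraries of their groups, and *wago-10* was lower in wild type gonads than in whole animals (-2.38). In that comparison it passed the filter through whole animal libraries alone.

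Of the 20 other Argonautes tested in *prg-1* gonads, 4 were higher (*wago-10*, *ppw-1*, *wago-2* and *ppw-2*), a share near the 20.7% of all features, and 3 were lower (9.53% of all features were), and beside *wago-10* the largest changes were in *alg-1*, a microRNA Argonaute gene (-1.35), *nrde-3*, a nuclear WAGO gene (-1.06), and *prg-1* itself (-0.97). In *mut-16* gonads 1 was higher (*wago-2*, where 15.5% of all features were) and 4 were lower (4.60% of all features were), with the largest changes in *sago-2* (-2.43), *wago-4* (-1.04), *csr-1* (-0.46) and *wago-2* (0.44). The count of 1 higher became 2 with only wild type and *mut-16* fitted and without wild type replicate 2, *prg-1* replicate 1 or *prg-1* replicate 3. Against whole animals 13 of 20 were higher in gonads (26.1% of all features were), such as *wago-2* (1.08). The 4 called lower were led by *sago-2* (-2.71), *wago-10* and *sago-1* (-2.14). They made up 20% of the list, below the 52.6% of all features. The microRNA Argonaute genes *alg-1* and *alg-2* had no call in that comparison.

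Markers of muscle also moved in the mutants. Of the 8 body wall muscle genes, 7 were tested, and 6 were higher in *prg-1* and 5 in *mut-16* gonads. Of all features, 20.7% and 15.5% were higher. The largest muscle change was in the myosin gene *myo-3* (2.08 and 1.57). The sum of the muscle genes was 522 to 636 normalized reads in the wild type libraries, 1173 to 1523 in *mut-16* and 1265 to 2726 in *prg-1*. It was 19784 to 39874 in whole animals of the other table. Within each mutant the muscle sum had the same replicate order as the sum of *alg-3* and *alg-4*, with 1303, 1523 and 1173 in *mut-16* and 1265, 1407 and 2726 in *prg-1*. In wild type gonads it did not, since replicate 2 had the lowest muscle sum (522) and the highest *alg-3* and *alg-4*. Of 4 intestine markers tested, 0 had a call in either mutant by limma, and 0 passed at an unadjusted p below 0.05. Among sheath and spermatheca markers, *inx-9* was higher in *prg-1* (0.67) and *mut-16* (0.72), and 3 of 4 tested had no call. Of 11 oocyte markers, *lin-41* (-0.46) and *rme-2* (-0.43) were lower in *prg-1* (9 at an unadjusted p below 0.05), where 9.53% of all features were. In *mut-16* 0 of the oocyte markers had a call by limma (1 higher and 2 lower at an unadjusted p below 0.05). The part of other cells in the level of *alg-3* and *alg-4* was not tested.

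The genes whose profile was most like each Argonaute were found by the root mean square difference of log2(value + 1), centered on each gene's mean, over the 9 gonad libraries. Nearest to *alg-3* were *kin-5* (0.12), the pseudogene T28B8.4 (0.14), F58D2.2 (0.17), ZK1053.2 (0.17) and *pck-3* (0.19), where the median over 9941 genes was 2.57. Nearest to *alg-4* were F44G3.7 (0.13), F55D12.6 (0.16), ZK1225.5 (0.17), *wht-4* (0.19) and ZC477.7 (0.19), against a median of 2.39. *kin-5* had 2.92, 25.9 and 1.08 normalized reads in the wild type libraries, and was at 75.04, 133 and 56.3 in *mut-16* and at 108, 179 and 603 in *prg-1*. It thus had the same high and low libraries as *alg-3* at a lower level, which follows from its selection over these libraries. Each Argonaute was further from the other (0.45), with 146 genes nearer to *alg-3* than *alg-4* was and 265 nearer to *alg-4* than *alg-3* was. The widest gap between both was in wild type replicate 3, at 3.25 normalized reads of *alg-3* and 13.6 of *alg-4*. These come to about 3.01 and 12.6 reads, so the distance of 0.45 rests largely on few reads. Over the 6 libraries of gonads and whole animals, the difference was 0.17 for *kin-5*, 0.13 for *pck-3* and 0.15 for F55D12.6, and it reached 0.49 for *wht-4*. These libraries include the same wild type gonads, so they are not a separate check. None of the 10 genes is in the lists of sperm genes used here.

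**Figure D5:**
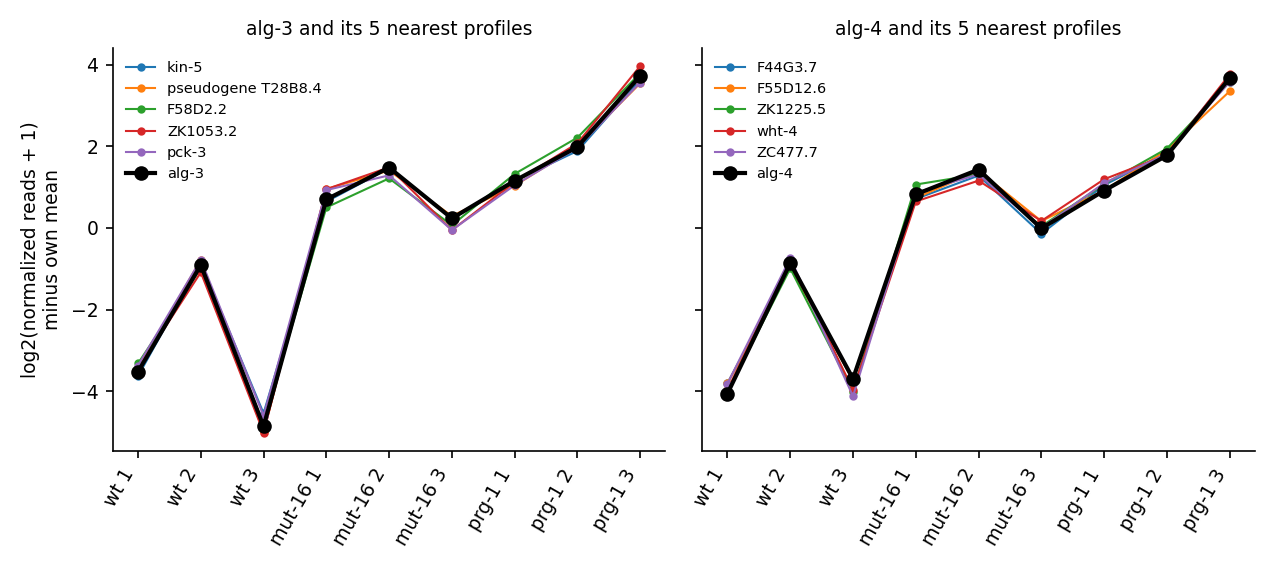
Profiles of *alg-3* (left) and *alg-4* (right) in black and of the 5 genes nearest to each, as log2(normalized reads + 1) minus each gene's own mean, over the 9 distal gonad libraries. All share a peak in wild type (wt) replicate 2 among the wild type libraries and the highest level in *prg-1* replicate 3. The genes were selected for likeness over these same libraries.

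No row for *alg-3* or *alg-4* was found in the small RNA tables used here, which list 21815 features (375 microRNAs, 15366 piRNAs and 6074 loci of 22G-RNAs). Small RNAs antisense to these genes were therefore not analysed here.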

How the data were processed

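The authors deposited signal values per gene, normalized reads scaled within each table in a way that the sources used here do not state. Per the labels and methods, reads were trimmed with Trimmomatic 0.35, aligned with STAR 2.5.0a and counted with RSEM 1.3.0, which can divide reads among paralogs, and DESeq2 1.18.1 was named for differential expression. Unscaled counts were not used here. In each mRNA library 87.5% to 93.2% of values up to 20 steps lay within 0.02 of a whole step, so reads were not worked back and no count test was run.

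The fits used limma 3.58.1 in R 4.3.3 with a trend of variance on level and robust moderation, on log2(value + 1), for features of at least 10 in at least 3 libraries, and calls needed an adjusted p below 0.05 and 1.3-fold. The 9 gonad libraries shared 1 fit. Ratios were tested by exact permutation. On simulated data, 99% to 100% of 4-fold and 53.1% to 65.1% of 2-fold changes were recovered. Recovery for genes as variable as *alg-3* and *alg-4* (SE 1.09 and 1.03 in *prg-1* against wild type gonads) was not tested separately. Symbols were matched by locus tag to RefSeq (20063 of 22844 features).

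The genes and lists were chosen with earlier results of these data known. From each list the text names all called genes of the 26G-RNA and CSR-1 lists and the 4 most changed of the others, and the 5 nearest profiles of each member; *spe-44*, *spe-6*, *eri-6*, *alg-1* and *alg-2* beyond that rule were chosen after their values were seen. So were *ppw-1*, *wago-2* and *ppw-2* in *prg-1* gonads, named there because they were called higher. Of the muscle markers only the most changed is named. Replicate numbers were checked for pairing: residuals of equal number correlated by 0.124, 0.547 and 0.358 between *mut-16* and wild type gonads, all over 0.1, and not so in the other comparisons. The labels give numbers but no shared day. Alternatives were other scaling (RLE, TMM, equal totals), pseudocounts 0.5 and 5, other filters, no fold threshold, only the groups compared, a replicate block and each library left out. RLE scaling hardly changed the deposited values, so its results were nearly fixed in advance. It moved the median log2 change by 0 in gonads against whole animals and by -0.0054 in *mut-16* against wild type. The 2 transposon tables were not used.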

Additional observations from a re-analysis of the deposited data

How the results depend on the processing

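The directions of *alg-3*, *alg-4* and their sum held under every alternative run in the 4 comparisons. The calls in *prg-1* gonads and of gonads against whole animals kept their side of the threshold under the settings that kept all libraries (adjusted p up to 0.0185 and 0.04, limma). In *mut-16* gonads the log2 changes of 3.91, 3.62 and 3.74 (*alg-3*, *alg-4* and sum) lost their call without a low-value filter (adjusted p = 0.0756, 0.0808 and 0.0754) and with only the 2 groups fitted (0.0617, 0.0577 and 0.0564), and *alg-4* at 3.62 also with a mean over 1 as filter (0.054), all by limma. The cause was not tested.

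With single libraries left out, the changes of *alg-3*, *alg-4* and sum ranged from -3.96 to -2.01, -3.69 to -2.11 and -3.80 to -2.20 in gonads against whole animals (5 of 6 settings without a call), from 4.51 to 6.49, 4.22 to 6.005 and 4.41 to 6.21 in *prg-1* (0 of 9), from 3.02 to 5.003, 3.03 to 4.63 and 3.16 to 4.78 in *mut-16* (6 of 9), and from 0.77 to 2.06, 0.60 to 1.98 and 0.67 to 2.01 between the mutants (9 of 9).

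With the replicate block, the pairing changed no call of either gene (adjusted p = 0.0452 and 0.0442 in *mut-16*, 0.012 and 0.0116 in *prg-1*, 0.0276 and 0.0192 in gonads against whole animals, limma), and the counts of all features stayed within 1.5 times. Counts over all features moved more: 1544 higher in *mut-16* became 868, 646, 851 and 736 without *mut-16* replicates 1 and 2 and wild type replicates 1 and 3, 6707 lower in gonads became 2712, 2690 and 2602 without whole animal replicates 1, 2 and 3, 3325 higher in gonads became 5190 with TMM scaling, and 577 higher in *prg-1* against *mut-16* became 916 and 376 without *prg-1* replicates 1 and 2, and 372 without *mut-16* replicate 1. Without the fold threshold, 948, 457 and 953 lower features became 1817, 1252 and 1476 in *prg-1*, in *mut-16* and between them, and 577 higher became 1127. Of the lists in *mut-16*, 25 major sperm protein genes became 16 without a low-value filter and 12 spermatogenesis genes became 7 with a pseudocount of 5. In gonads against whole animals, 7 spermatogenesis genes lower became 14 without a low-value filter or with a mean over 1. Without the fold threshold, 3 and 4 lower Argonautes became 8 and 7 in *prg-1* and *mut-16*, and with TMM scaling 5 and 7. TMM and equal totals moved the median of all features in gonads against whole animals by 0.42 and -0.11 on the log2 scale.

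Depth limits the wild type gonads, where *alg-3* rests on about 10 and 3 reads in replicates 1 and 3. The small RNA comparisons and count tests that had been planned were not run, since no small RNA row of these genes was found and whole reads were not recovered.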

Other observations

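The genes beside *alg-3* and *alg-4* in RefSeq order (WBcel235) were read as well, a choice made after the data were seen. T22B3.3, next to *alg-3*, was at 1.19 ± 2.06 normalized reads in wild type gonads and reached 56.9 ± 44.2 in *prg-1*, a log2 change of 4.87 (adjusted p = 0.000661, limma), and 18.6 ± 6.39 in *mut-16*, a log2 change of 3.50 (adjusted p = 0.00639, limma). T22B3.3 passed the low-value filter through mutant libraries alone. *magi-1*, on the other side of *alg-3*, had no call in either mutant (755 ± 29.4 in wild type, 605 ± 60.3 in *prg-1* and 626.5 ± 37.7 in *mut-16*). Beside *alg-4*, ZK757.10 was listed at 0 in all 9 gonad libraries, and *mam-7* was at 2.60 ± 2.80, 5.77 ± 1.72 and 4.15 ± 1.82 normalized reads in wild type, *prg-1* and *mut-16* gonads, too low to be tested. Overlap of transcripts between these neighbors was not examined.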
